A study of Mus musculus with 8 samples.

Results

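Mitochondria fuse and divide through a small set of proteins, and 10 genes of that machinery were followed here in activated muscle stem cells (ASCs) with and without a targeted deletion of mitofusin 2. The genes were Mfn2, Mfn1 and Opa1 for fusion, Dnm1l, Fis1 and Mff for division, Oma1 and Yme1l1 for the processing of OPA1, and Mtfr1 and Gdap1 as further promoters of division. They were taken by symbol from the table of normalized reads, which lists 18877 genes and holds all 10. After genes with a mean under 10 normalized reads over the 8 libraries were set aside, 11754 genes were tested, among them 9 of the 10. Gdap1 was the member left out, and its reads are given with an exact permutation p alone.

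Fusion needs the outer membranes of neighbouring mitochondria to dock and merge, which is the work of the mitofusins MFN1 and MFN2, and then the inner membranes to merge, which is the work of OPA1. Division runs in the opposite direction: the cytosolic GTPase DRP1, the product of Dnm1l, is recruited by outer membrane receptors such as MFF and FIS1 and constricts the organelle. The proteases OMA1 and YME1L cleave OPA1 from long into short forms and so set how much of it can drive fusion. MFN2 is abundant in striated muscle, where it also tethers mitochondria to the reticulum that stores calcium.

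The cells came from the tibialis anterior muscle of adult mice, 2 days after barium chloride injury, and were sorted as living, CD34-negative, Dendra2-positive cells. Both groups carried a mitochondrial Dendra2 reporter switched on by the tamoxifen-dependent recombinase of Pax7-CreERT2, and both received tamoxifen at 75 mg/kg on 5 days before the injury. The 4 mfn2-/- libraries came from mice with a floxed Mfn2 allele in addition, and the 4 wild-type libraries from control mice. The reporter marks cells in which the recombinase acted on the reporter locus, which is not a measure of recombination at Mfn2, and the exons removed are not given in the sources used here. Strain, sex and exact age are not given there either. The labels do not say that each library came from a separate mouse, so every p-value below measures the spread between these libraries, which may be partly technical. The question addressed is whether the transcripts of the fusion and division machinery differ when Mfn2 is targeted.

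The depth ran from 1880464 to 7508215 reads per library, so that a single read counted as 0.534 to 2.27 normalized reads. Without molecular identifiers, limits derived from these reads cover counting error alone. The libraries labelled mfn2-/- 4 and wild-type 2 were most often the lowest of their group, for 4 and 6 of the 9 tested members. They were not low throughout, since they were also the highest for 3 and 2 of 9. Other libraries were often outermost as well: wild-type 3 was the highest for 5, mfn2-/- 2 the highest for 4 and mfn2-/- 1 the lowest for 3. In mfn2-/- 4, 9646 genes were detected, against 12613 to 15270 in the others. Reads from 4 Y-linked genes numbered 0 in wild-type 1 and 2 and in mfn2-/- 3 and 4, and 807 to 2336 in the other 4 libraries, so each group holds 2 libraries of each kind. Of 9 muscle stem cell markers, Des, Myod1 and Sdc4 were higher in mfn2-/- ASCs, and the summed share of the list was 0.177 to 0.282% in wild-type and 0.582 to 0.918% in mfn2-/- libraries. Sdc4 (4271 to 17473 normalized reads on average) and Des (2156 to 7969) made up most of that sum, while the list median was 0.10 on the log2 scale and Itga7 was at -0.87 (limma adjusted p 0.110). Of 10 fibroadipogenic markers 9 were lower (4.58 to 6.23% against 0.127 to 0.232% of the total), as were 8 of 8 tenocyte markers (0.864 to 1.44% against 0.00736 to 0.00986%), with Col1a1 and Fmod as the most abundant of each and none of these 18 genes at 0 in every library of a group. The remaining fibroadipogenic marker, Ly6a, went the other way, at 2.08 on the log2 scale (limma adjusted p 0.309). Over all genes tested, limma called 3.99% higher and 6.36% lower. Markers of 8 other cell types gave 1 higher gene (Myh4, myofiber) and 1 lower (Cspg4, mural). No neutrophil or lymphocyte marker passed the filter, so none of these could be called. Cd68, Csf3r, Tek, Acta2, Acta1 and Alas2 were among the most abundant markers. Emr1, S100a9, Cd3e and Cd79a (wild-type) and Ly6g (mfn2-/-) were at 0 in a whole group. The part of these cells in the results below was not tested. In such bulk samples, fewer cells of a type and less RNA per cell cannot be told apart.

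No member passed the test across all genes. By limma on log2(normalized reads + 1) with Benjamini-Hochberg adjustment at 0.05, 0 of the 9 tested members were called, where 10.4% of all 11754 genes were (3.99% higher and 6.36% lower). The count of members was also 0 with edgeR (9.85% of genes called) and with DESeq2 (14.8%), both run on whole reads recovered from the table. At an unadjusted limma p under 0.05 the count was 1, Mfn2, against 24.8% of all genes. Mfn2 was also the only tested member whose groups did not overlap, 1 of 9, where 19.5% of all genes tested had no overlap in either direction, 12.2% with mfn2-/- lower and 7.36% with mfn2-/- higher. The log2 change was negative for 8 of the 9 members and positive for Opa1. Its median over the members was -0.39, beside a median of -0.16 over all genes tested. With upper-quartile scaling the median of all genes was 0.05 and with quantile normalization 0.08, so the median over all genes depends on the scaling. The source of the shift was not tested. The count of negative members depended on the scaling too. With quantile normalization Mfn1 (0.25), Fis1 (0.022), Mff (0.22) and Mtfr1 (0.36) were positive besides Opa1. Mfn2, Dnm1l, Oma1 and Yme1l1 remained negative there. With upper-quartile scaling Dnm1l (0.030) and Mff (0.11) were positive besides Opa1, and the remaining members were negative. Of the 1217 genes called, 469 were higher and 748 lower, which makes 38.5% higher, and with upper-quartile scaling 840 of 1462 were higher (57.5%).

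**Figure D1:**
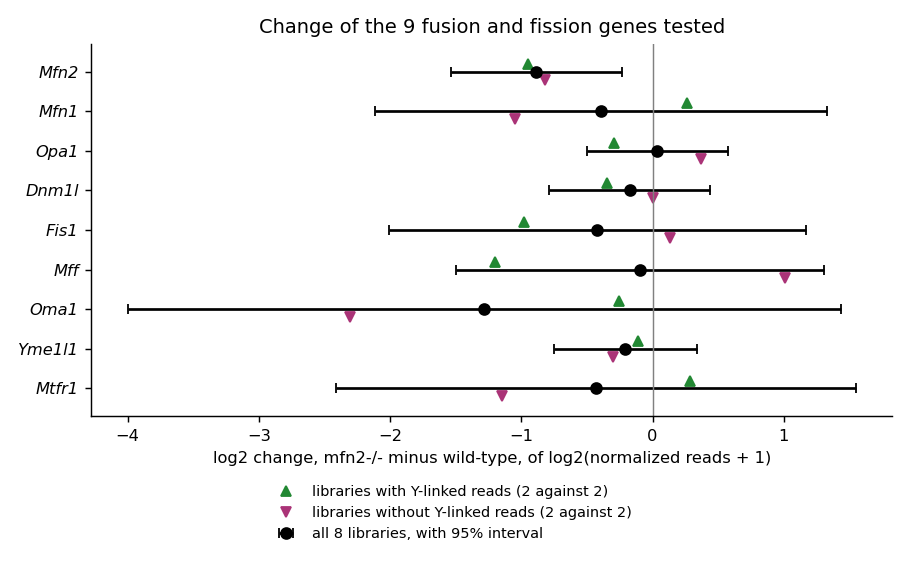
The log2 change (mfn2-/- minus wild-type) of the 9 tested members is plotted on the horizontal axis, with black circles and bars for the estimate from 8 libraries and its 95% interval, and triangles for the libraries with and without Y-linked reads, 2 against 2. The interval of Mfn2 alone lies wholly below 0 (-1.54 to -0.23), and its triangles (-0.95 and -0.82) are on the same side of 0.

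Mfn2, the targeted gene (GENCODE M21 annotation of GRCm38, chr4:147873599-147904704, minus strand), was examined first. The wild-type libraries held 243, 245, 202 and 228 normalized reads, from 107, 236, 247 and 427 reads. The mfn2-/- libraries held 104, 118, 172 and 110, from 156, 149, 234 and 60 reads. Every mfn2-/- library was below every wild-type library, with mfn2-/- 3 nearest to the wild-type range. The means were 229 ± 19.98 and 126 ± 31.4 (SD, n = 4 each), so that 54.9% of the wild-type level was measured in mfn2-/- ASCs. The log2 change was -0.88 (SE 0.30, 95% interval -1.54 to -0.23). The two-sided exact permutation test gave p = 0.0286, the smallest that 70 arrangements of 4 against 4 allow.

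Over all genes the limma adjusted p of Mfn2 was 0.0848, above the threshold, for a log2 change of -0.88 that was lower in 4 of 4 mfn2-/- libraries. The residual SD of Mfn2 itself was 0.25 on the log2 scale, against a median of 0.83 over all genes (quartiles 0.45 and 1.77). The test moderates that SD toward genes of the same abundance, which raised it to 0.43. Relative to the median of all genes, Mfn2 was at -0.73, a value that scaling by 1 factor per library leaves nearly in place by construction, and at -0.82 with quantile normalization. The estimate was negative under 23 of 23 alternatives, from -1.04 without mfn2-/- replicate 3 to -0.68 with upper-quartile scaling. Settings that change only the filter or the trend, or add replicate or Y-linked terms, leave the estimate of any gene as it was. Since the groups of Mfn2 did not overlap, fits that leave libraries out could not change its sign. With each library weighted by its own scatter, the limma adjusted p of Mfn2 was 0.0099 for a log2 change of -0.87, and under that setting 25.8% of all genes were called. In the other 22 alternatives the adjusted p stayed above the threshold and reached 0.178 without wild-type replicate 4. Scaled to the total outside the fibroadipogenic and tenocyte markers, the change was -0.93 (limma adjusted p 0.0808). The value counts reads over the whole gene, so transcripts that lack the floxed exons are included and the extent of recombination cannot be read from it.

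**Figure D2:**
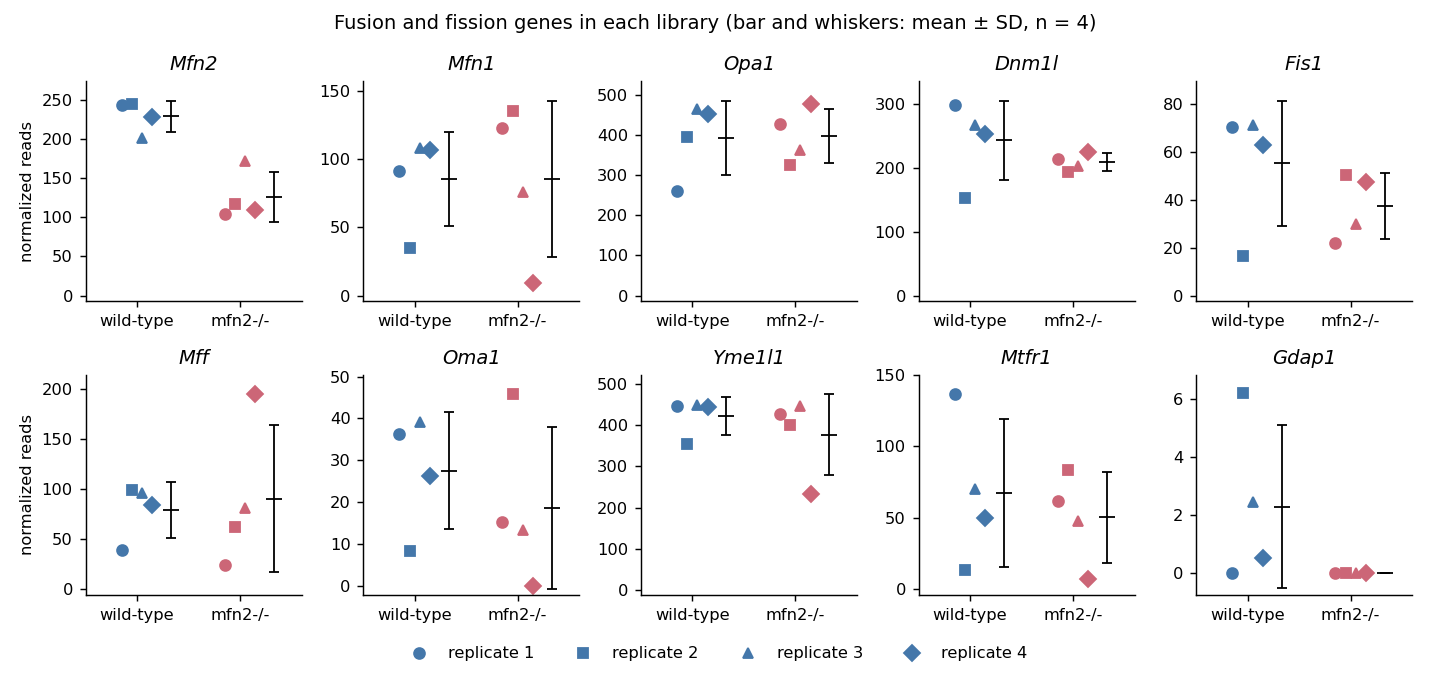
Normalized reads of the 10 members in each library are plotted on linear vertical axes, wild-type in blue and mfn2-/- in red, with a symbol per replicate and the mean ± SD of 4 libraries beside the points. Mfn2 is the panel in which the groups separate (202 to 245 against 104 to 172), while Mfn1, Oma1 and Mtfr1 each have a low wild-type 2 and a low mfn2-/- 4.

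Mfn1 (chr3:32529465-32579239, plus strand) encodes the second mitofusin, which shares its fold and docking role with MFN2. Since related genes can exchange reads in counting, the coding sequences of the annotated transcripts were aligned. Of 2195 aligned bases 1497 were identical (68.2%), and the longest run without a mismatch was 21 bases. No stretch of 50 bases in any Mfn2 transcript was found in a transcript of another gene, and for Mfn1 0.852% of such stretches were.

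The wild-type libraries held 91.0, 35.3, 108 and 107 normalized reads of Mfn1. The mfn2-/- libraries held 123, 135, 75.9 and 9.16, the last from 5 reads. The groups overlapped, and the mfn2-/- values ran both above and below the wild-type range. The means were 85.2 ± 34.2 and 85.7 ± 57.0 (SD, n = 4 each). The log2 estimate was -0.39 (SE 0.80, 95% interval -2.12 to 1.33, limma adjusted p 0.803), and its sign rested on mfn2-/- replicate 4, without which it was 0.46. It was also positive with quantile normalization (0.25), edgeR (0.13) and DESeq2 (0.015), so no direction can be given for Mfn1. The interval is wide enough to hold changes of more than 1 on the log2 scale in either direction.

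Opa1 (chr16:29579334-29654884, plus strand), the GTPase that merges inner membranes and keeps cristae tight, was among the members with the narrowest intervals. Its normalized reads were 262, 394, 464 and 452 in wild-type and 428, 325, 362 and 476 in mfn2-/- libraries. All but wild-type 1, the lowest, and mfn2-/- 4, the highest, lay between 325 and 464. The means were 393 ± 92.7 and 398 ± 67.4 (SD, n = 4 each), with a log2 estimate of 0.04 (95% interval -0.50 to 0.58, limma adjusted p 0.942). The estimate was negative in 6 of 23 alternatives, down to -0.29 with library weights.

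The proteases that cut OPA1 were measured at very different depth. Yme1l1 (chr2:23156369-23199260, plus strand), the protease that faces the space between the membranes, had 448, 355, 449 and 444 normalized reads in wild-type and 428, 401, 448 and 233 in mfn2-/- libraries. In each group 3 libraries lay close together, and wild-type 2 and mfn2-/- 4 lay below them. The log2 estimate was -0.21 (95% interval -0.75 to 0.34, limma adjusted p 0.656), and it was 0.010 without mfn2-/- replicate 4.

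Oma1 (chr4:103313812-103371868, plus strand), the protease that acts when the membrane potential is lost, gave 16, 8, 48 and 49 reads in wild-type libraries, or 36.4, 8.30, 39.2 and 26.2 normalized reads. In mfn2-/- libraries there were 23, 58, 18 and 0 reads, or 15.3, 45.8, 13.3 and 0 normalized reads. The 0 in mfn2-/- 4 allows up to 3 reads, which is 5.50 normalized reads there, so it is not shown to be absent. The highest and the lowest library of all 8 were both mfn2-/-, and the log2 estimate of -1.28 had an interval of -4.00 to 1.44 (limma adjusted p 0.572). It was negative in 22 of 22 alternatives that kept Oma1 in the test, from -2.10 with a pseudocount of 0.1 to -0.04 with library weights.

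Dnm1l (chr16:16312230-16358959, minus strand), which encodes the division GTPase DRP1, had 298, 153, 267 and 254 normalized reads in wild-type libraries. The mfn2-/- libraries held 214, 194, 203 and 225. They were the most even of any tested member in either group, with a mean of 209 ± 13.4 against 243 ± 62.5 in wild-type (SD, n = 4 each), and they lay below 3 of the 4 wild-type libraries and above wild-type 2. The log2 estimate was -0.17 (95% interval -0.79 to 0.44, limma adjusted p 0.751). It was 0.030 with upper-quartile scaling and -0.42 (limma adjusted p 0.316) without wild-type 2 and mfn2-/- 4 together, a choice made after the data had been seen. In Dnm1l, 2.14% of the 50-base stretches also occur in the predicted gene Gm13719.

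The receptors that recruit DRP1 varied widely between libraries of the same group. Fis1 (chr5:136953275-136966234, plus strand), a small tail-anchored protein of the outer membrane, had 70.5, 16.6, 71.0 and 63.0 normalized reads in wild-type and 22.0, 50.6, 30.2 and 47.6 in mfn2-/- libraries. Each mfn2-/- library was below 3 wild-type libraries, and wild-type 2 was below them all. The log2 estimate was -0.42 (95% interval -2.01 to 1.17, limma adjusted p 0.768), 0.022 with quantile normalization, and -1.05 (limma adjusted p 0.269) without wild-type 2 and mfn2-/- 4.

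Mff (chr1:82724890-82752394, plus strand), the receptor held to be the main recruiter of DRP1 in mammals, had 38.7, 98.5, 95.5 and 84.4 normalized reads in wild-type libraries. In mfn2-/- libraries it had 24.0, 61.6, 81.1 and 194, which put the lowest and the highest value of all 8 in the mfn2-/- group. The mean was higher in mfn2-/- (90.2 ± 73.3 against 79.3 ± 27.8, SD, n = 4 each) while the log2 estimate was -0.09 (95% interval -1.50 to 1.31, limma adjusted p 0.945). The estimate was positive in 7 of 23 alternatives, among them quantile normalization (0.22), edgeR and DESeq2 (0.17 each), and the fit without mfn2-/- replicate 1 (0.41), so no direction can be given. It was also positive with upper-quartile scaling (0.11), which moves all genes upward alike.

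Mtfr1 (chr3:19187327-19220817, plus strand), whose product promotes division and respiration, had 136, 13.5, 70.2 and 49.7 normalized reads in wild-type and 62.0, 83.7, 47.9 and 7.33 in mfn2-/- libraries. Wild-type 1 was the highest of all 8 and mfn2-/- 4, with 4 reads, the lowest. The log2 estimate was -0.43 (95% interval -2.41 to 1.55, limma adjusted p 0.813). It was positive with quantile normalization (0.36), with library weights (0.37) and without wild-type replicate 1 (0.038) or mfn2-/- replicate 4 (0.30).

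Gdap1 (chr1:17145362-17164271, plus strand), a division factor known from nerve, was at the limit of detection. It had 0, 6, 3 and 1 reads in wild-type libraries and 0 in each mfn2-/- library. Only wild-type 2 exceeded 3 reads, the limit that a count of 0 allows, so no fold is given. Over the 9 members other than Mfn2, the two-sided exact permutation p ranged from 0.143 to 0.914. The lowest was that of Gdap1 and rests on counts at the limit of detection. The next were Fis1 and Oma1, at 0.429 each.

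Levels of different genes were compared per kilobase of annotated exon, taken over all transcripts of a gene, and the order depends on that choice of length. For Mff it was 9757 bases against 3918 in the longest transcript, for Fis1 1714 against 948 and for Mfn2 5194 against 4341. By the longest transcript Mff and Fis1 would rank higher. In wild-type ASCs the order of mean level was Yme1l1 (53.0 normalized reads per kb), Opa1 (49.9), Dnm1l (46.7), Mfn2 (44.2), Fis1 (32.3), Mtfr1 (15.4), Mfn1 (13.9), Oma1 (12.8), Mff (8.13) and Gdap1 (0.298). The ranges of all neighbours in that order overlapped except those of Mff and Gdap1. Mfn2 was the more abundant mitofusin in wild-type ASCs, at 44.2 ± 3.85 against 13.9 ± 5.59 for Mfn1 (SD, n = 4). In mfn2-/- ASCs the order began with Opa1 (50.5), Yme1l1 (47.1) and Dnm1l (40.2), and Mfn2 followed at 24.3 ± 6.05. There the ranges of Dnm1l and Mfn2, neighbours that overlapped in wild-type, no longer did, while Mfn2 overlapped with Fis1 (21.9). The remaining order was Mfn1 (14.0), Mtfr1 (11.5), Mff (9.25), Oma1 (8.68) and Gdap1 (0), with overlap between all neighbours.

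**Figure D3:**
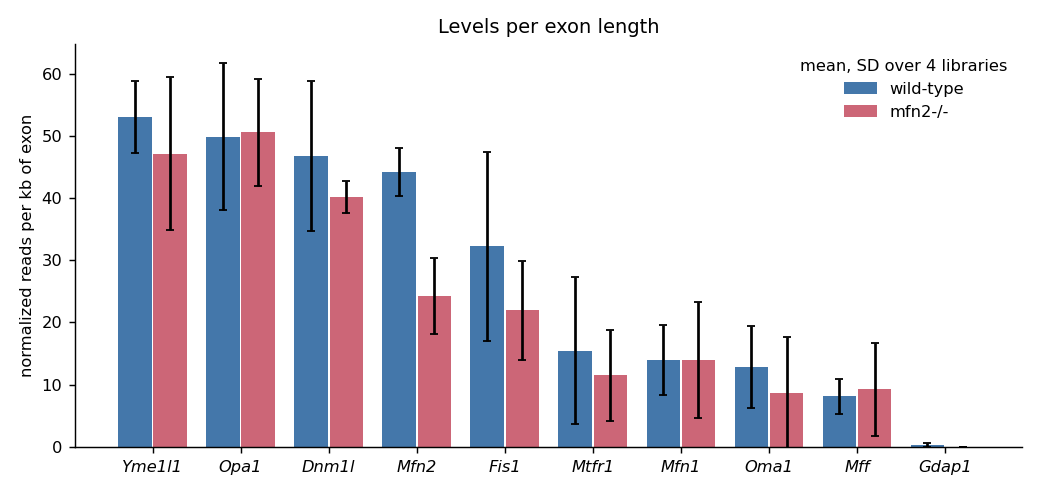
Bars give the mean level of each member in normalized reads per kb of exon, in wild-type (blue) and mfn2-/- (red) libraries, with the SD of 4 libraries as whiskers, which are cut at 0. By this length Mfn2 stands level with Dnm1l and Opa1 in wild-type (44.2, 46.7 and 49.9) and close to Fis1 in mfn2-/- (24.3 and 21.9). The order depends on the length used.

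Ratios between members of the same library do not depend on scaling by a single factor per library, and they are given as a description. Quantile normalization can change them and was not applied to them. The ratio of Mfn1 to Mfn2 per kb was 0.318, 0.122, 0.454 and 0.398 in wild-type and 1.00, 0.975, 0.374 and 0.0708 in mfn2-/- libraries. In mfn2-/- 1 and 2 the mitofusins were thus near parity, in mfn2-/- 3 the ratio stayed within the wild-type range, and in mfn2-/- 4 it was below that range. The ratio of Opa1 to Mfn2 was 0.709, 1.06, 1.52 and 1.31 in wild-type and 2.71, 1.82, 1.38 and 2.86 in mfn2-/- libraries. It lay above every wild-type library in 3 of 4 mfn2-/- libraries, with mfn2-/- 3 the exception.

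To set Mfn2 against its own membrane, its level was divided by the summed level of 9 outer membrane channel and import genes. That ratio was 0.111, 0.125, 0.104 and 0.146 in wild-type and 0.0895, 0.0872, 0.0867 and 0.0450 in mfn2-/- libraries. The groups did not overlap, and 3 mfn2-/- libraries were nearly equal, with mfn2-/- 4 lower. Mfn2, the numerator, did not overlap by itself either, so this is not a separate observation. The ratio of Mfn2 to Dnm1l, Fis1 and Mff together was 0.458, 0.956, 0.379 and 0.466 in wild-type and 0.355, 0.310, 0.511 and 0.233 in mfn2-/- libraries, which overlap. When the 3 fusion genes (Mfn2, Mfn1, Opa1) were summed and divided by these 3 division genes, the ratio was 0.928, 2.09, 1.12 and 1.26 in wild-type and 1.67, 1.18, 1.41 and 0.914 in mfn2-/- libraries. The log2 difference of that ratio was -0.03 with a SD of 0.44 between libraries, so the balance of fusion to division transcripts as a whole did not separate the groups, in a sum to which Opa1 contributed more than Mfn2 in 7 of 8 libraries.

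Within the division and protease genes the ratios varied more between libraries than between groups. Mff to Fis1 was 0.0963, 1.04, 0.236 and 0.235 in wild-type and 0.192, 0.214, 0.471 and 0.716 in mfn2-/- libraries. Oma1 to Yme1l1 was 0.303, 0.0874, 0.326 and 0.220 in wild-type and 0.134, 0.427, 0.111 and 0 in mfn2-/- libraries. Dnm1l to Opa1 was 0.589 to 1.72 in wild-type and narrower, 0.716 to 0.904, in mfn2-/- libraries. All of these groups overlapped.

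**Figure D4:**
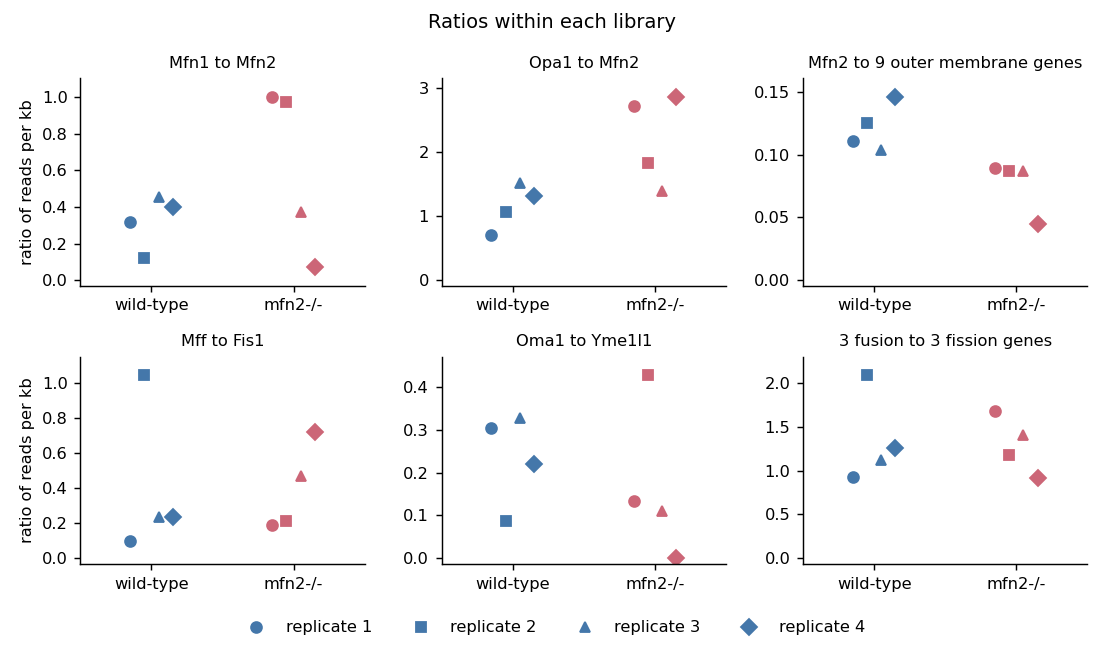
Each panel plots a ratio of normalized reads per kb within each library on a linear axis, wild-type in blue and mfn2-/- in red, with a symbol per replicate. The ratio of Mfn2 to 9 outer membrane genes is the panel without overlap (0.104 to 0.146 against 0.0450 to 0.0895), while the ratio of 3 fusion to 3 fission genes (2.09 at its highest in wild-type 2) overlaps.

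The changes were also taken within the libraries with and without Y-linked reads. Those without hold wild-type 2 and mfn2-/- 4, which were most often the lowest of their group, and the shallowest library, wild-type 1. In mfn2-/- 4, Mfn1, Mtfr1 and Oma1 had 5, 4 and 0 reads. A difference between the kinds therefore cannot be told apart from these libraries. Mfn2 was at -0.95 in the libraries with Y-linked reads and at -0.82 in those without, 2 against 2 in each. Mff was at -1.20 and 1.01, Fis1 at -0.98 and 0.14, Mfn1 at 0.26 and -1.05, Mtfr1 at 0.28 and -1.14, Opa1 at -0.29 and 0.37, Oma1 at -0.26 and -2.30, Dnm1l at -0.35 and 0.0015 and Yme1l1 at -0.11 and -0.30. Mfn2 and Yme1l1 thus differed least between the kinds of library. The difference between the kinds was tested as an interaction in limma, and for the members its adjusted p was 0.481 to 0.944, with 1.47% of all genes called.

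Similarity between profiles was measured as the root mean square difference of log2 values, each centred on its own mean over the 8 libraries. Among the members the closest were Dnm1l and Yme1l1 (0.35), Opa1 and Dnm1l (0.42) and Mfn2 and Yme1l1 (0.45). The weakly expressed Mfn1 and Mtfr1 were at 0.55, and Mff and Oma1 were farthest apart (2.30). Mfn2 and Mfn1 were at 1.20. Of all genes tested, the profiles nearest to that of Mfn2 were those of Prpf19 (0.12), Commd8 (0.13), Tmed10 (0.16), Dcbld2 (0.16) and Rgl1 (0.16). These share with it the libraries and their depth, and they were chosen for this likeness, so their lower values in mfn2-/- libraries follow from the choice. Their log2 changes were -0.96 for Dcbld2, -0.82 for Rgl1, -0.81 for Commd8, -0.78 for Prpf19 and -0.74 for Tmed10.

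Genes that act around the fusion and division machinery were followed as 6 lists. For 17 tested regulators of fusion and division the median was 0.02. Sh3glb1, which shapes the outer membrane, was at 0.15 (limma adjusted p 0.707) and Dnm2, a dynamin of the cell surface also found at division sites, at -0.0035 (0.995). Marchf5, a ligase that acts on mitofusins, was not analysed here under that symbol.

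Of 7 mitochondrial transport genes, Kif5b was called higher and 0 were called lower (median 0.24), where 3.99% of all genes tested were called higher and 6.36% lower, so a count of 1 in a list this short is not a result about the list. KIF5B is the kinesin that carries mitochondria along microtubules through the TRAK adaptors and the MIRO proteins, to which MFN2 also binds. Kif5b had 1219, 1240, 1414 and 1525 normalized reads in wild-type and 1852, 2147, 2503 and 3594 in mfn2-/- libraries. The groups did not overlap, and mfn2-/- 4 was well above the others. The log2 change of Kif5b was 0.86 (SE 0.21, limma adjusted p 0.0206), at 0.44 with and 1.29 without Y-linked reads. It was positive in 23 of 23 alternatives, many of which could not change its sign, as for Mfn2. Kif5b was called in 16 of them. It was not called without wild-type replicate 1, 2 or 3 (limma adjusted p 0.0512, 0.0548 and 0.0510) or mfn2-/- replicate 3 (0.0524). Nor was it called with quantile normalization (0.0709), without the trend (0.139) or without wild-type 2 and mfn2-/- 4 (0.0668). The adaptor gene Trak1 was at 0.69 (limma adjusted p 0.0756) and Kif1b, another mitochondrial kinesin, at -0.25 (0.406).

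No gene was called by limma in the lists of the prohibitin scaffold, the cristae junction and the outer membrane. Over all genes tested 10.4% were called, so a count of 0 in lists this short is not a result about them. Of 7 genes of the prohibitin scaffold and the proteases around OPA1 the median was -0.26. Phb2 at -0.33, Afg3l2 at -0.25 and Phb at 0.41 were the most abundant (limma adjusted p 0.606, 0.781 and 0.664). Of 9 tested genes of the cristae junction the median was -0.07, with Immt at 0.17, Chchd3 at -0.01 and Dnajc11 at -0.07 (limma adjusted p 0.812, 0.988 and 0.945). Of the 9 outer membrane genes the median was -0.19, with Tomm20 at -0.06, Tomm70a at 0.01 and Vdac2 at -0.19 (limma adjusted p 0.897, 0.994 and 0.788). These medians stand beside -0.16 over all genes tested.

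The last list held 6 coactivators and factors linked to transcription of Mfn2, with a median of -0.34 and Myod1 as its called gene, 1 of 6, beside the same 3.99% of all genes called higher. Myod1, a master regulator of the muscle lineage, had 212, 104, 225 and 147 normalized reads in wild-type and 910, 683, 918 and 801 in mfn2-/- libraries, without overlap. The log2 change of Myod1 was 2.32 (SE 0.27, limma adjusted p 0.000146), called in 23 of 23 alternatives. Myog, which acts later in the lineage, was at -1.37 (limma adjusted p 0.110), at -2.78 with and 0.05 without Y-linked reads, and the nuclear respiratory factor gene Nrf1 at 0.60 (0.470).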

How the data were processed

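Stranded low-input libraries from total RNA of sorted ASCs were sequenced by the authors (4 wild-type, 4 mfn2-/-, grouped by sample title). The submitters' processing notes name Trim Galore, HISAT2, featureCounts, DESeq2 and the mm9 build; the annotation is not given in the sources used here. The deposited values are a signal, normalized read counts per gene on a linear scale. Per library, 100% of the entries fell on integer multiples of the smallest step (tolerance 0.01). Division by that step gave whole reads, which served for depth and for the count-based tests. Of the 24 symbols turned into dates by a spreadsheet none was renamed.

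Genes with a mean of at least 10 were fitted on log2(value + 1), a scale that understates changes of weak genes, by limma 3.58.1 (R 4.3.3) with its intensity trend and without covariates. Tests were two-sided with Benjamini-Hochberg adjustment over all of them. Single values were compared by exact permutation. Exon lengths, coordinates and sequences came from GENCODE M21 on GRCm38, not the build of the counts, and coding parts were taken as the longest open reading frame. Alternatives tried were no filter, pseudocounts of 0.1 and 10, a mean of at least 50, 4 other scalings, a replicate block, Y-linked reads as a term, no trend, library weights, edgeR 4.0.16, DESeq2 1.42.0, each library left out, and 2 libraries left out together. The limma and edgeR tests were tested on simulated data. The text names every member, the called and the 3 most abundant genes of each related list, the 5 profiles nearest to Mfn2, and for markers the most abundant. Some items that this rule would name are not reported here. The members and lists were chosen with earlier results of these data known.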

Additional observations from a re-analysis of the deposited data

Results flagged for a closer look

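For every member and ratio, the gap between the outermost library and its nearest neighbour was divided by the range of the 4 libraries of that group. This share was above Dixon's 95% critical value in 5 of 35 groups, where chance gives about 1 in 20 groups, or 1.75. Of the 5, 4 concerned wild-type 2. There Fis1 was 16.6 normalized reads where the remaining wild-type libraries had 63.0 to 71.0, and Yme1l1 was 355 against 444 to 449. The ratio of Mff to Fis1 was 1.04 against 0.0963 to 0.236, and the ratio of Mfn2 to Dnm1l, Fis1 and Mff together was 0.956 against 0.379 to 0.466. The low Fis1 value of that library enters both of these ratios, so they are not separate observations. The fifth was mfn2-/- 4, where the ratio of Mfn2 to 9 outer membrane genes was 0.0450 while its group otherwise had 0.0867 to 0.0895, with 60 reads of Mfn2. No cause was tested for any of these values.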

How the results depend on the processing

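Mfn2 stayed lower under 23 of 23 alternatives, many of which could not change its sign. Its call changed with library weights alone (-0.87, limma adjusted p 0.0099), the setting that made 1 member called. With each library left out in turn Mfn2 ranged from -1.04 to -0.80. Estimates of the other members changed sign as follows, and the cause was not tested. Upper-quartile scaling gave 0.030 for Dnm1l and 0.11 for Mff, and quantile normalization gave 0.25 for Mfn1, 0.022 for Fis1, 0.22 for Mff and 0.36 for Mtfr1. Equal totals outside the fibroadipogenic and tenocyte markers gave -0.010 for Opa1. Library weights gave 0.27 for Mfn1, -0.29 for Opa1 and 0.37 for Mtfr1. Mfn1 and Mff were 0.13 and 0.17 with edgeR and 0.015 and 0.17 with DESeq2. With each library left out, Opa1 was -0.15 (wild-type 1), -0.0021 (mfn2-/- 1) and -0.054 (mfn2-/- 4), Mff was 0.039, 0.024 and 0.41 (wild-type 2, wild-type 3, mfn2-/- 1), Mtfr1 0.038 and 0.30 (wild-type 1, mfn2-/- 4), Mfn1 0.46 and Yme1l1 0.010 (mfn2-/- 4). The lowest and highest of these fits were -0.15 and 0.13 for Opa1, -0.58 and 0.41 for Mff, -1.04 and 0.30 for Mtfr1, -0.79 and 0.46 for Mfn1 and -0.30 and 0.010 for Yme1l1. Without wild-type 2 and mfn2-/- 4 together Mfn1 was 0.088 and Opa1 -0.040. The 1217 called genes became 633 without the trend (113 higher) and 3037 with library weights (1398 higher, 1639 lower), and upper-quartile scaling called 840 higher. With each library left out they ranged from 671 to 1331 (235 to 489 higher, 436 to 842 lower).

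The replicate numbers did not pair the libraries (correlations of deviations by number -0.11 to 0.04). With the replicate block 1043 genes and 0 members were called, and Mfn2 had a limma adjusted p of 0.155 at a log2 change of -0.88. Longest transcript lengths were also used in place of exon lengths. For a ratio of a single gene to a single gene that choice cannot change overlap, since it multiplies every library alike. The ratios that sum several genes could have changed, and each kept its overlap or lack of it. The order of the members per kb does not hold. Low read counts limit Gdap1, Oma1 and, in mfn2-/- 4, Mfn1 and Mtfr1, each at 5 reads or fewer there. Wild-type 1 was shallower (1880464 reads against 2269009 in mfn2-/- 4) but had 40 reads of Mfn1 and 60 of Mtfr1. The cause of the low counts in mfn2-/- 4 was not tested.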
